A study of Mus musculus with 3 samples.

Results

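This account describes 10 genes whose loss of function in humans gives facial dysostosis, taken here as a broad group of conditions, often with small cheekbones or jaws. The genes were taken by name from the mouse annotation GENCODE M21, with no use of their values, and make up 10 of the 55401 genes counted. They are *Tcof1*, *Polr1a*, *Polr1b*, *Polr1c* and *Polr1d*, which serve ribosomal RNA (rRNA) transcription, *Eftud2*, *Txnl4a*, *Sf3b4* and *Snrpb*, which serve splicing, and *Eif4a3*, which marks spliced mRNA. RNA-Seq counts came from 3 libraries of maxillary processes, the paired swellings of the embryonic face that form the upper jaw, taken at E10.5 from *wnt1cre; Rosa26Dlx2/-* mouse embryos. These embryos carry Cre recombinase under *Wnt1* control and the Rosa26CAG-LSL-Dlx2-3xFlag allele, so that *Dlx2* is switched on in cells derived from the neural crest. The whole tissue also holds cells of other origin, such as those of vessels and blood, and *Dlx2* counts do not separate the allele from the endogenous gene. The 3 libraries (OE replicates 1, 2 and 3, numbered only to name them) were made from separate RNA samples. Nothing in the sources used here says how many embryos went into each. Wild-type embryos were not analysed here. All values therefore come from overexpressing tissue, and genotypes could not be compared.

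As background, RNA polymerase I makes the long rRNA precursor in the nucleolus, and the treacle protein encoded by *Tcof1* helps the polymerase and its upstream factor at the rRNA genes. Cranial neural crest cells divide quickly and need many ribosomes, and when this supply fails in them they die by a p53-dependent route, which leaves too few cells to build the face. The splicing genes encode general parts of the spliceosome, yet partial loss of each in humans also affects facial structures derived from the neural crest.

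The libraries held 36544554, 35351031 and 40057435 counts on genes, and values are given as counts per 1000000 counts on genes scaled with TMM factors (CPM), a scale on which 3 counts correspond to 0.0777 to 0.0843 CPM. *Dlx2* itself was at 235, 201 and 183 CPM in replicates 1, 2 and 3. The 7 mesenchyme markers were present in every library, with a summed level of 1654 to 1870 CPM. Replicate 3 stood apart: the chi-square statistic per degree of freedom between libraries was 71.2 for replicates 1 and 2, against 343 for replicates 1 and 3 and 177 for replicates 2 and 3. Replicate 1 was the only library with *Xist* above 1 CPM (671 CPM) and had 0 counts of 4 Y-linked genes, so the libraries also differed in sex-linked RNA. Markers of other cell types also differed between the libraries. The summed level of 9 neuron markers was 273, 24.3 and 35.9 CPM, that of 6 eye and forebrain markers 21.3, 153 and 142 CPM, and that of 5 pigment markers 2.41, 12.8 and 98.2 CPM, with *Tyr* and *Tyrp1* at 0 in replicate 1. Endothelial markers summed to 218, 237 and 140 CPM, epithelial markers to 340, 223 and 223 CPM, macrophage markers to 15.8, 22.5 and 29.4 CPM, erythroid markers to 1922, 3593 and 4233 CPM and proliferation markers to 2782, 2840 and 2459 CPM. The part of these differences in the values below was not tested. In bulk tissue, fewer cells of a type and less RNA per cell cannot be told apart.

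All 10 facial dysostosis genes were well expressed in every library, from 30.5 CPM for *Txnl4a* in replicate 1 to 645 CPM for *Snrpb* in replicate 3, so the depth did not limit their detection. *Polr1a*, *Tcof1*, *Eftud2* and *Sf3b4* stayed within 1.23-fold between their lowest and highest library and *Polr1b* within 1.43-fold. *Polr1c*, *Polr1d*, *Txnl4a*, *Snrpb* and *Eif4a3* spanned 1.60-fold to 2.04-fold and were all highest in replicate 3. Of the 17115 genes whose counts averaged 10 or more (called all genes here), 62.2% had a range of at least 1.5-fold, so 5 of 10 is no excess. A range of at least 1.5-fold with replicate 3 highest was seen in 28.7% of all genes and in 5 of the 10. The same with replicate 3 lowest was seen in 28.3% of all genes and in 0 of the 10. With libraries scaled by total counts alone, *Polr1d* and *Txnl4a* had such a range with replicate 3 highest and *Polr1b* with it lowest. No other gene of the 10 reached 1.5-fold under that scaling, which 63.9% of all genes did.

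**Figure D1:**
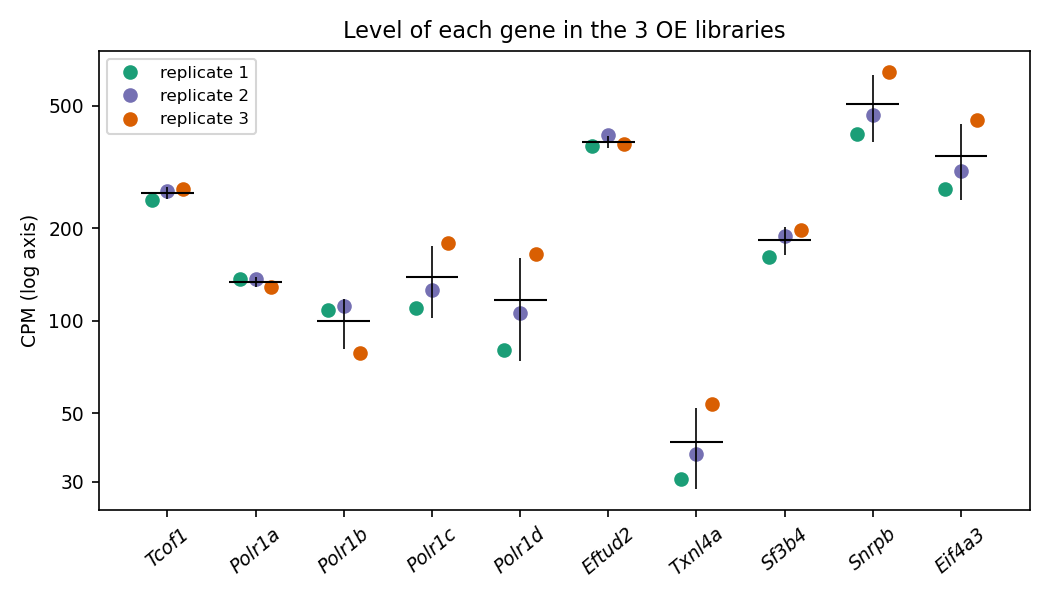
TMM-scaled CPM (log axis) of each of the 10 genes in OE replicates 1, 2 and 3 (coloured points), with the mean (horizontal line) and SD (vertical line) over the 3 libraries. The points of *Tcof1*, *Polr1a* and *Eftud2* nearly coincide, while replicate 3 lies above the others for *Polr1c*, *Polr1d*, *Txnl4a*, *Snrpb* and *Eif4a3* and below them for *Polr1b*.

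Counting noise was tested for each gene with a chi-square test of its 3 counts against the scaled library sizes, with Benjamini-Hochberg adjustment over all genes at 0.05. This test compares libraries, not conditions. It called 81.5% of all genes and 10 of the 10, the largest adjusted p being that of *Polr1a*, at 0.00286. Called genes with replicate 3 highest made up 36.4% of all genes and 7 of the 10, and called genes with replicate 3 lowest made up 39.1% of all genes and 2 of the 10 (*Polr1a* and *Polr1b*). For 4 of the 10 the call was lost when a single library was left out. The adjusted p of the chi-square test was 0.195 for *Tcof1* without replicate 1, 0.202 for *Eftud2* without replicate 2, and 0.892 for *Polr1a* and 0.181 for *Polr1b* without replicate 3.

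*Tcof1* (ENSMUSG00000024613.16, mm10 chr18:60813755-60848971, minus strand) was the most abundant rRNA transcription gene of the 10 by counts. It had 9512, 9369 and 10120 counts, or 246, 263 and 269 CPM, in replicates 1, 2 and 3. Its mean was 259 ± 11.6 CPM (SD, n = 3), and its ratio of highest to lowest library, 1.09, placed its spread on the log2 scale at percentile 4.51 of all genes. Its nearest relative in the genome is *Nolc1*, which encodes another phosphoprotein of the nucleolus. *Nolc1* was at 399, 420 and 421 CPM, and the ratio of *Tcof1* to *Nolc1* per exonic base was 0.466, 0.472 and 0.481, or 0.473 ± 0.00732 (SD, n = 3). The ratio was thus nearly the same in libraries that differed in other respects.

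Of the RNA polymerase I genes, *Polr1a* and *Polr1b* encode the 2 largest subunits, which form the catalytic centre and belong to polymerase I alone. *Polr1c* and *Polr1d* encode a pair of small subunits that start assembly of the enzyme and are shared with RNA polymerase III, which makes transfer RNA and 5S rRNA. *Polr1a* (ENSMUSG00000049553.11, chr6:71909053-71984935, plus strand) was at 137, 136 and 128 CPM in replicates 1, 2 and 3. The SD of its log2 CPM, 0.05, was the lowest of the 10 (percentile 2.85 of all genes), but it was 0.17 once a smooth trend on length and GC content was removed, above that of 5 of the others. *Polr1b* (ENSMUSG00000027395.15, chr2:129100995-129126594, plus strand) was at 108, 112 and 78.5 CPM, so replicates 1 and 2 lay close together and replicate 3 was 0.714-fold their mean. The large subunits thus did not keep 1 ratio: *Polr1a* to *Polr1b* per exonic base was 0.619, 0.595 and 0.800.

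Both shared subunits were highest in replicate 3. *Polr1c* (ENSMUSG00000067148.15, chr17:46243920-46248054, minus strand) had 4231, 4495 and 6738 counts, or 110, 126 and 179 CPM, with a mean of 138 ± 36.1 CPM (SD, n = 3). *Polr1d* (ENSMUSG00000029642.11, chr5:147077050-147111597, plus strand) had 3103, 3776 and 6183 counts, or 80.4, 106 and 164 CPM, with a mean of 117 ± 42.9 CPM (SD, n = 3). *Polr1d* had the widest range of the 10, 2.04-fold, and was the only one still at or past 1.5-fold (1.55-fold) without replicate 1. Without replicate 1, 44.3% of all genes had such a range. None of the 10 reached 1.5-fold without replicate 3, beside 16.7% of all genes. The per-base ratio of *Polr1c* to *Polr1d*, which pair in the enzyme, was 1.82, 1.59 and 1.46, while that of *Polr1c* to *Polr1a* was 4.18, 4.83 and 7.26 and that of *Polr1d* to *Polr1a* 2.29, 3.04 and 4.99. These ratios set short genes against a gene of 11871 exonic bases, and with the trend removed the log2 difference of replicate 3 was 0.22 for *Polr1c*, 0.69 for *Polr1d* and 0.28 for *Polr1a*, so that *Polr1c* then lay nearer to *Polr1a*.

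The bases just upstream of *Polr1a*, *Polr1b* and *Polr1c* are shown because these genes encode parts of one enzyme and differed in how replicate 3 stood to the others. They are RefSeq sequence of GRCm38.p6, 5′ to 3′ on the strand of each gene, and end before the first transcribed base of GENCODE M21. A promoter window was found for 5 of the 10 genes. Capitals mark CCGGAA, the core bound by ETS factors, which occurs once, 42 bases before the RefSeq start of *Polr1c*.
Polr1a, chr6:71908803-71909052, plus strand: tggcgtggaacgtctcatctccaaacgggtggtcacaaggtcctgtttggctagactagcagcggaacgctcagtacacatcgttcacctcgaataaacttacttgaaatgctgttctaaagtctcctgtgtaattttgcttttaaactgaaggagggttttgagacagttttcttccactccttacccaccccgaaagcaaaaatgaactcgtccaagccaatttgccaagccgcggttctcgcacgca
Polr1b, chr2:129100746-129100994, plus strand: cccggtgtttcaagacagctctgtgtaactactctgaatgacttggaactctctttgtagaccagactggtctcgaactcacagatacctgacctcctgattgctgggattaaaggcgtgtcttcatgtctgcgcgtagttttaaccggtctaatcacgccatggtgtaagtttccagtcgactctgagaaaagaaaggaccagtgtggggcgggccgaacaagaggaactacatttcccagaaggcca
Polr1c, chr17:46248055-46248295, minus strand: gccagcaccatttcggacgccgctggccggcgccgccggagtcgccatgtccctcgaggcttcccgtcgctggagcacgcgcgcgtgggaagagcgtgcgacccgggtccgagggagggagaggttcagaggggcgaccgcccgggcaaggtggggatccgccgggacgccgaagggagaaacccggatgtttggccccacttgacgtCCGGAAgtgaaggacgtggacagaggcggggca
The window of *Polr1c* is rich in G and C (70.4% over 250 bases), while those of *Polr1a* (47.6%) and *Polr1b* (49.6%) lie below the median of 52.4% over 32544 RefSeq windows of the same length. The window of *Polr1d* held 52.8% G and C and that of *Eif4a3* 70.0%. That of *Polr1d* (chr5:147077096-147077345) lies wholly inside the gene as GENCODE M21 places it, from base 147077050. Of the 250 bases for *Eif4a3*, 204 lie before its GENCODE M21 start. Both windows are still counted among the 5 below. Searched on both strands, CCGGAA was present in 12.1% of all windows and in 1 of the 5. CACGTG (an E-box, in 6.03% of all windows), TAATTA (a homeobox core, 4.84%), TATAAA (the classic core element, 12.3%) and CTCGCGAG (0.768%) were in 0 of the 5. Letters in a window are a description of it and say nothing of binding.

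The counts of this and the next lists are to be read against the shares of all genes. These were 81.5% called, 36.4% called with replicate 3 highest and 39.1% called with replicate 3 lowest. Other genes of polymerase I and its factors were uneven too. Of 16 such genes, 15 were called, 10 with replicate 3 highest and 5 with replicate 3 lowest, and the median log2 difference of replicate 3 from the mean of replicates 1 and 2 was 0.34 (all genes: −0.03). That median rested on 5 small subunits that the nuclear polymerases share, all higher in replicate 3 (0.49 to 1.44). Over the other 11 genes, a division made after the values were seen, 5 were higher, 6 lower, and the median was −0.05. *Taf1b*, a subunit of the promoter factor SL1, was not called. *Ubtf*, the upstream binding factor that treacle works with, was the most abundant, at 309, 347 and 449 CPM, and *Polr2k*, a small subunit of all 3 nuclear polymerases, the least, at 12.4 ± 2.66 CPM (SD, n = 3). *Polr2f*, another shared small subunit, differed most in the upward direction (55.5, 74.4 and 174 CPM), and *Twistnb*, a stalk subunit particular to polymerase I, most in the downward direction (65.1, 54.7 and 29.5 CPM).

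The 11 genes of the polymerase III list do not include those 5 shared subunits, which also belong to polymerase III. All 11 were called, 4 with replicate 3 highest and 7 with replicate 3 lowest, with a median log2 difference of −0.19 (0.32 with the 5 shared subunits added). *Polr3g*, a subunit of early and proliferating cells, went furthest down (36.2, 31.3 and 15.2 CPM), while the highest and lowest mean levels were those of *Polr3k* (92.7, 86.4 and 75.5 CPM) and *Polr3gl* (11.6, 14.3 and 16.5 CPM). Among 16 nucleolar genes of rRNA processing, 15 were called, 6 with replicate 3 highest and 9 lowest, with a median log2 difference of −0.23, and *Snu13* was not called. With the length and GC trend removed, the median came to 0.05 for these nucleolar genes and −0.09 for the polymerase III list. It stayed positive for the polymerase I list (0.26). The same held for lists described below: U5 and tri-snRNP (0.21), U2 (0.40), Sm (0.72), exon junction (0.20) and paralogs (0.22). *Npm1* was the most abundant of the nucleolar genes (2709, 2442 and 2269 CPM) and *Nop10* the least (46.1, 50.3 and 70.7 CPM). *Nhp2*, of the box H/ACA particle that modifies rRNA, was highest in replicate 3 (140, 166 and 334 CPM), and *Ddx21*, an RNA helicase of the nucleolus, was lowest in replicate 3 (325, 286 and 147 CPM).

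Among the splicing genes, the range between libraries ran from 1.09-fold for *Eftud2* to 1.75-fold for *Txnl4a*. With the length and GC trend removed, the SD of log2 CPM was 0.12 for *Eftud2*, 0.17 for *Snrpb*, 0.20 for *Sf3b4* and 0.42 for *Txnl4a*. *Eftud2* (ENSMUSG00000020929.14, chr11:102838473-102880985, minus strand) encodes the GTPase of the U5 particle, which drives remodelling of the spliceosome. It had 14237, 14274 and 14137 counts, or 369, 401 and 375 CPM, with a mean of 382 ± 17.0 CPM (SD, n = 3). The 3 libraries lay within 1.09-fold of each other for *Eftud2*, and its spread was at percentile 4.37 of all genes. *Txnl4a* (ENSMUSG00000057130.12, chr18:80206795-80225855, plus strand), a small thioredoxin-fold protein of the same U5 particle, had 1179, 1312 and 2017 counts, or 30.5, 36.9 and 53.5 CPM. Replicate 3 was 1.59-fold the mean of the others, and the per-base ratio of *Txnl4a* to *Eftud2* was 0.154, 0.171 and 0.266. Its paralog *Txnl4b* was at 9.98, 11.2 and 17.7 CPM, and the ratio to it was 1.29, 1.38 and 1.27.

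Both values of the U5 pair carry an annotation limit. *Txnl4a* shares 457 exonic bases (10.1% of its exons, 35.9% of its coding bases) with *Gm16286* on the same strand, which had 4651, 5118 and 8133 counts (121, 144 and 216 CPM) and was likewise highest in replicate 3. The counted files hold a class of reads on more than 1 gene, left unassigned (6.10% to 6.96% of reads), but the counting mode is not given in the sources used here, so the level of *Txnl4a* is uncertain. *Eftud2* shares 2261 exonic bases (26.9%) with *Gm26668* on the opposite strand, which was not among the counted genes. Of 11 other genes of the U5 particle and tri-snRNP, 10 were called, 6 with replicate 3 highest and 4 lowest, with a median log2 difference of 0.08. *Prpf8*, the core scaffold of the spliceosome, was the most abundant at 546, 535 and 376 CPM, and *Prpf3* the least and not called at 86.4, 86.9 and 85.3 CPM. *Sart1* went furthest up (166, 209 and 346 CPM) and the helicase *Snrnp200* furthest down (337, 344 and 224 CPM).

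*Sf3b4* (ENSMUSG00000068856.3, chr3:96172332-96177564, plus strand) encodes a subunit of SF3B, the part of the U2 particle that holds the branch site. It was at 161, 188 and 198 CPM, with replicates 2 and 3 close together and a mean of 182 ± 19.2 CPM (SD, n = 3). Of the 100-base windows of its transcript, 36.9% occur exactly in the processed pseudogene *Gm7935*, which had 69, 68 and 72 counts. How reads that fit both loci were placed is not given in the sources used here, so *Sf3b4* is uncertain to that extent. Its partner *Sf3b1*, the largest SF3B subunit, went furthest down of the U2 genes, at 449, 410 and 221 CPM, and the per-base ratio of *Sf3b4* to it was 1.88, 2.42 and 4.71. *Sf3b1* is by far the longer gene, and with the trend removed the log2 difference of replicate 3 was −0.34 for *Sf3b4* and −0.22 for *Sf3b1*. Over the 11 other U2 genes 10 were called, 7 with replicate 3 highest and 3 lowest, with a median log2 difference of 0.27. *Sf3b2*, the most abundant, was level across the libraries (485, 480 and 484 CPM) and was not called, *Sf3b6* was the least abundant (77.0, 84.3 and 111 CPM), and *Snrpa1* went furthest up (59.0, 74.3 and 144 CPM).

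*Snrpb* (ENSMUSG00000027404.15, chr2:130171414-130179403, minus strand) encodes SmB, a protein of the Sm ring on the U1, U2, U4 and U5 RNAs. It was the most abundant of the 10, with 15592, 16604 and 24281 counts, or 404, 466 and 645 CPM (mean 505 ± 125, SD, n = 3), and ranked 258 among all genes by mean CPM. Replicate 3 was 1.48-fold the mean of the others. Most other Sm genes were likewise highest in replicate 3. Of 6, 5 were called, each with replicate 3 highest (36.4% of all genes), and 4 of those with a range of at least 1.5-fold (28.7%). The median log2 difference over the 6 was 0.68. With the length and GC trend removed, that median was 0.72, while the difference of *Snrpb* went from 0.57 to 0.27. *Snrpd1*, the most abundant of the 6, was at 132, 153 and 228 CPM, and *Snrpd2* at 84.7, 101 and 281 CPM. *Snrpf* had only 23, 13 and 12 counts and was not called, and 85.4% of its exonic bases are shared with genes on the other strand, so its value is uncertain. The ratio of *Snrpb* to its paralog *Snrpn* per base was 12.8, 11.9 and 10.1, but *Snrpn* shares 27.3% of its exonic and 36.8% of its coding bases with another gene on the same strand, so its level is uncertain.

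*Eif4a3* (ENSMUSG00000025580.15, chr11:119288363-119300089, minus strand) encodes the helicase that clamps the exon junction complex onto spliced mRNA. It had 10370, 10932 and 16940 counts, or 269, 307 and 450 CPM, and replicate 3 was 1.57-fold the mean of replicates 1 and 2. Of the other core genes, *Magoh* and *Rbm8a* were also highest in replicate 3, while *Casc3* was lowest there (117, 108 and 102 CPM). The per-base ratio of *Eif4a3* to *Magoh* was 1.25, 1.28 and 1.31, and that to *Rbm8a* was 1.93, 2.14 and 2.22. With the trend removed, the log2 difference of replicate 3 was 0.22 for *Eif4a3* and 0.75 for *Rbm8a*. The translation factor *Eif4a1*, its paralog, was more abundant per base in each library, with a ratio of *Eif4a3* to it of 0.337, 0.363 and 0.432. Another paralog, *Eif4a2*, was less abundant per base, with a ratio of *Eif4a3* to it of 2.03, 2.36 and 4.31. *Eif4a2* is the longer gene (5338 exonic bases against 2122). With the trend removed, the log2 difference of replicate 3 was 0.22 for *Eif4a2*, as for *Eif4a3*, and 0.61 for *Eif4a1*. In *Eif4a3*, 6.31% of the 100-base windows occur exactly in transcripts of 3 other genes, the most in *Gm5580*, which had 6, 8 and 22 counts. Of 10 other genes of the complex and of nonsense-mediated decay, which reads its mark, 9 were called, 5 with replicate 3 highest and 4 lowest, with a median log2 difference of 0.15. *Rnps1* was the most abundant (388, 411 and 454 CPM), *Magohb* the least and not called (12.5, 12.9 and 13.8 CPM), *Upf3a* went furthest up (48.4, 57.6 and 87.0 CPM) and *Pnn* furthest down (370, 347 and 224 CPM).

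**Figure D2:**
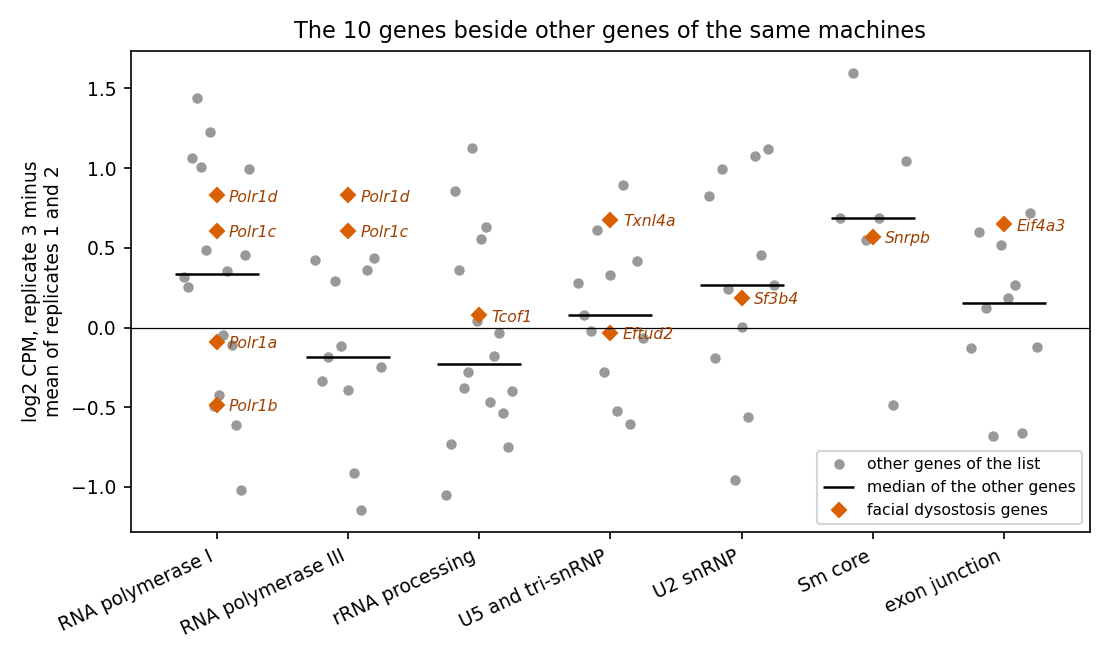
Log2 CPM of replicate 3 minus the mean of replicates 1 and 2 for the 10 genes (diamonds) and for the other genes of each list (grey points), with the median of the other genes as a horizontal line. *Polr1c* and *Polr1d* appear under both polymerases. The other Sm genes have the highest median, 0.68, and the nucleolar genes of rRNA processing the lowest, −0.23. With the length and GC trend removed, which is not drawn, these medians were 0.72 and 0.05.

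Among 13 paralogs of the 10 genes, 12 were called, 7 with replicate 3 highest and 5 lowest, with a median log2 difference of 0.07. *Eef2*, the elongation GTPase related to *Eftud2*, was the most abundant (3697, 4035 and 4270 CPM), *Txnl4b* the least, *Polr2j* went furthest up (18.7, 24.1 and 44.2 CPM) and *Polr2a*, the largest subunit of polymerase II, furthest down (507, 479 and 320 CPM). *Efl1* was not called. The ratio of *Polr1b* to its polymerase II counterpart *Polr2b* per base was 0.538, 0.564 and 0.565, so this ratio changed little although both genes were lowest in replicate 3. The other pairs of catalytic subunits changed more, with ratios of 0.160, 0.169 and 0.239 for *Polr1a* to *Polr2a*, 1.63, 1.62 and 1.93 for *Polr1a* to *Polr3a*, and 1.88, 1.93 and 1.55 for *Polr1b* to *Polr3b*.

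The difference of replicate 3 followed gene length. Over the 5148 genes of up to 2500 exonic bases the median log2 difference was 0.54, and over the 6274 genes of more than 5000 bases it was −0.41. The 10 genes followed this slope in part: *Snrpb* (1976 bases), *Eif4a3* (2122) and *Polr1c* (2278) differed by 0.57, 0.65 and 0.60, whereas *Polr1b* (5805), *Eftud2* (8395) and *Polr1a* (11871) differed by −0.49, −0.04 and −0.09. With a smooth trend on length and GC content removed, *Snrpb*, *Eif4a3* and *Polr1c* came to 0.27, 0.22 and 0.22. *Polr1d* (3043 bases) and *Txnl4a* (4507 bases) kept most of their difference, at 0.69 each. *Sf3b4* went from 0.18 to −0.34, *Tcof1* from 0.08 to −0.15, *Eftud2* from −0.04 to 0.12 and *Polr1a* from −0.09 to 0.28, so the sign of these 4 turned with the trend. The sign of *Tcof1* also turned when libraries were scaled by total counts alone (−0.06), a scaling that put the median of all genes at −0.16, and that of *Eftud2* turned without replicate 2 (0.02). The median over the 10 was 0.38 before and 0.22 after removal of the trend, beside −0.03 and 0.01 over all genes.

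**Figure D3:**
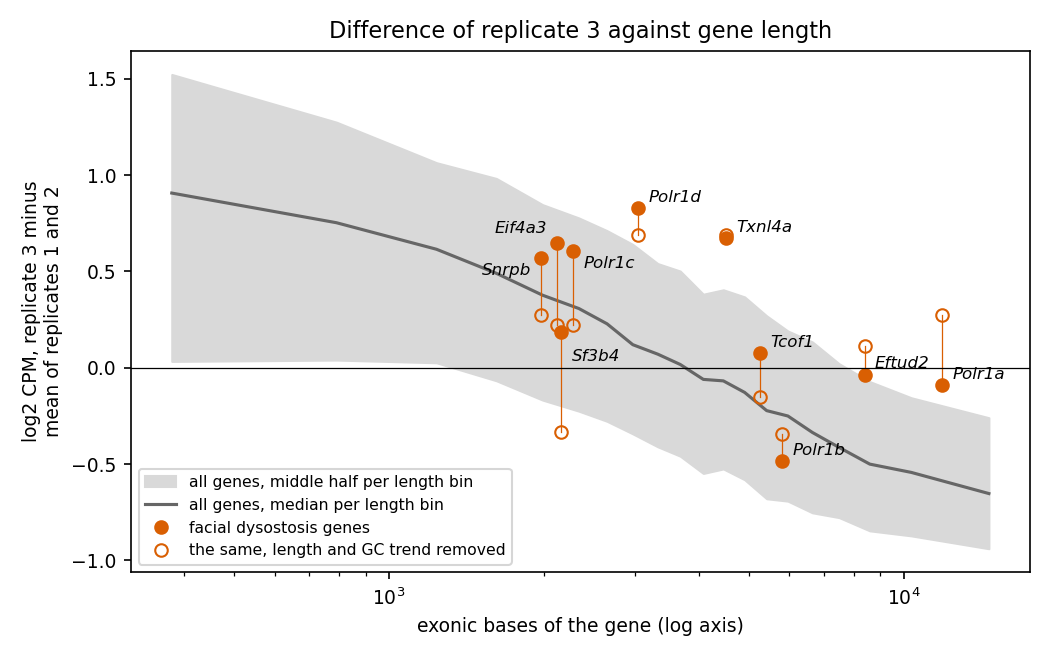
Log2 CPM of replicate 3 minus the mean of replicates 1 and 2 against the exonic bases of each gene (log axis). The line and band give the median and the range from the lower to the upper quartile of all genes in 20 length bins, filled circles the 10 genes, and open circles the same genes with the length and GC trend removed. *Polr1d* and *Txnl4a* stay at 0.69 after removal, while *Snrpb*, *Eif4a3* and *Polr1c* drop to between 0.22 and 0.27.

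The spread among replicates was then set beside that of other genes. The SD of log2 CPM had a median of 0.31 over the 10, 0.39 over all genes and 0.30 over the 6706 genes averaging 1000 counts or more, a level every one of the 10 reached. The median biological coefficient of variation was 0.255 for the 10, 0.339 for all genes and 0.257 for those highly counted genes. In that class, 49.15% of genes had a range of at least 1.5-fold, beside 5 of the 10. Before any trend was removed, the median spread of the 10 thus lay close to that of genes of like abundance. With the length and GC trend removed, the median SD was 0.17 for the 10, 0.20 for that class and 0.29 for all genes. The median log2 difference of replicate 3 in that class was −0.10, and 0.02 with the trend removed.

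Levels of different genes were compared per length, as TPM (transcripts per 1000000) over all exonic bases. *Snrpb* stood at the top with 779 ± 34.0 TPM (SD, n = 3), followed by *Eif4a3* at 489 ± 36.9 TPM and *Sf3b4* at 262 ± 28.2 TPM. The assembly subunits *Polr1c* (185 ± 10.6 TPM) and *Polr1d* (115 ± 18.5 TPM) lay above the catalytic subunits *Polr1b* (55.0 ± 18.7 TPM) and *Polr1a* (35.6 ± 8.02 TPM). *Tcof1* (154 ± 24.0 TPM) and *Eftud2* (143 ± 27.4 TPM) lay between the assembly subunits, and *Txnl4a* was last at 27.1 ± 2.37 TPM. The ranges over the 3 libraries did not overlap between *Snrpb*, *Eif4a3*, *Sf3b4*, *Polr1c* and *Tcof1*, each beside the next, nor between *Polr1d* and *Polr1b*. The ranges of *Tcof1* and *Eftud2*, *Eftud2* and *Polr1d*, *Polr1b* and *Polr1a*, and *Polr1a* and *Txnl4a* overlapped. Within each library *Tcof1* lay above *Eftud2* and *Polr1b* above *Polr1a*, while the order of *Eftud2* and *Polr1d* and that of *Polr1a* and *Txnl4a* changed between libraries. The middle of the order depended on the length used. So did the size of the per-base ratios given above, which rest on all exonic bases, though not their relative change between libraries. With the longest protein-coding transcript as length, *Eftud2* stood just below *Eif4a3* at 248 TPM, ahead of *Polr1c* (221), *Sf3b4* (204), *Polr1d* (202) and *Tcof1* (122), while *Snrpb*, *Eif4a3* and the 3 lowest genes kept their places.

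**Figure D4:**
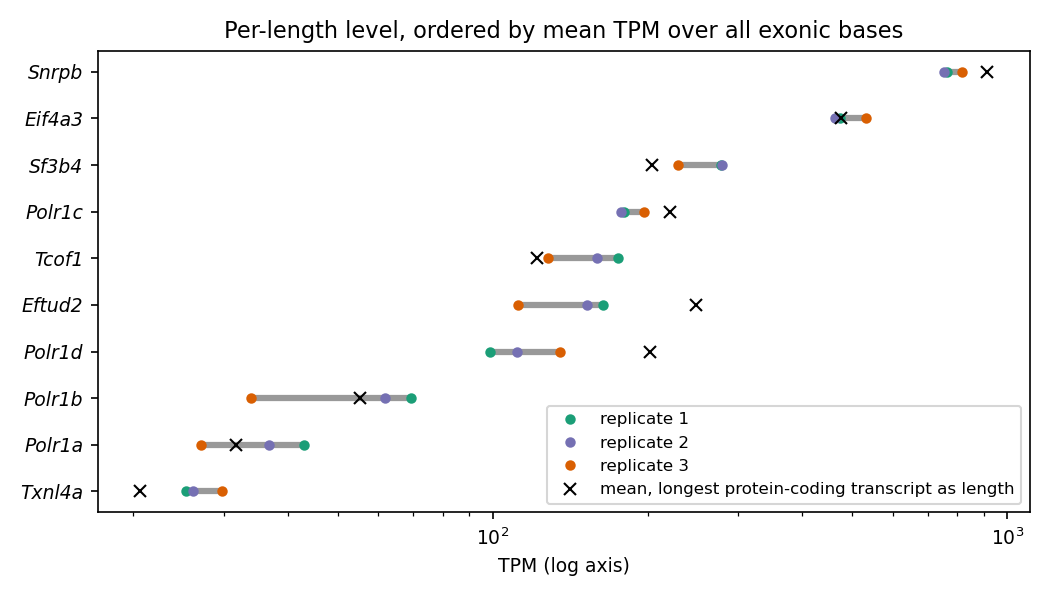
TPM (log axis) of the 10 genes in OE replicates 1, 2 and 3 (points joined by a bar) over all exonic bases, ordered by mean, with a cross for the mean when the longest protein-coding transcript is the length. *Snrpb* and *Eif4a3* lead and *Txnl4a* is last under both lengths, and the cross lies outside the bar for 7 of the 10 genes, all but *Eif4a3*, *Polr1b* and *Polr1a*.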

How the data were processed

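Poly-A selected RNA from E10.5 maxillary processes was sequenced in 3 OE libraries as paired-end reads. Per the submitters' processing notes, FastQC, STAR 2.7.3a, HTSeq 0.12.4 and the mm10 genome were used. The authors deposited raw counts per gene, whole numbers without normalization; the strand setting and the annotation release are not given in the sources used here. Without strand, reads of a gene and an antisense partner cannot be told apart. Rows that name no gene held 14.2%, 15.7% and 16.4% of counted reads and were left out. Of 55401 identifiers, 55141 matched GENCODE M21 by identifier.

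CPM were scaled with TMM factors (1.06, 1.01 and 0.940) in edgeR 4.0.16. Log2 CPM used a prior count of 2, and the 17115 genes averaging 10 counts or more entered the tests. With one genotype no contrast between groups exists, so each gene's counts were tested against scaled library sizes with a chi-square test (2 degrees of freedom, Benjamini-Hochberg adjustment at 0.05). By *Xist* and the Y-linked genes, replicate 1 held RNA of other embryos than replicates 2 and 3. Nothing says that replicates 2 and 3 came from separate embryos, or that any of the samples came from separate litters. The p-values therefore measure only how far these libraries differ, which may be partly technical. Counting limits (3 counts) cover counting error only. Dispersion came from an intercept-only edgeR model with a common coefficient of variation of 0.371. The length and GC trend was fitted with mgcv 1.9.3 over 17101 genes, with exonic length from GENCODE M21 and GC content from the longest transcript of each gene. DESeq2 1.42.0 gave alternative size factors. Other filters, another prior count, total-count scaling and leaving out each replicate were the other alternatives. The steps were tested on simulated data. R 4.3.3, Python 3.11.15, numpy 2.4.6, pandas 2.3.3 and matplotlib 3.10.9 were used.

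The 10 genes were picked by name for their role and by no threshold on their values, but they, the lists and the contrast of replicate 3 with the others were chosen with earlier results of these data known. Named beside them were, from each list, the genes of highest and lowest mean CPM and of largest difference in each direction, any gene whose exons overlap those of the 10, and *Dlx2*. Not every gene this rule covers is reported here. *Taf1b*, *Snu13* and *Efl1* (not called), *Nolc1*, *Magoh*, *Rbm8a*, *Casc3*, *Eif4a1*, *Eif4a2*, *Snrpn*, *Polr2b*, *Polr3a*, *Polr3b*, *Gm7935*, *Gm5580*, *Tyr*, *Tyrp1* and *Xist* were named in addition, after their values were seen. Adjusted p-values are over all genes, and promoter windows are from RefSeq (GRCm38.p6).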

Additional observations from a re-analysis of the deposited data

How the results depend on the processing

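Over 25 results, 114 of 128 alternative values moved by less than the limit set for them and 14 moved further. All 10 genes were beyond counting noise under the other scalings and filters (53.4% to 88.3% of all genes), 9 without replicate 1 (71.2%), 9 without replicate 2 (77.7%) and 8 without replicate 3 (48.8%). The count with a range of at least 1.5-fold was 5 but 3 under total-count scaling, beside 63.9% of all genes. Of those 3, *Polr1d* and *Txnl4a* were highest in replicate 3 and *Polr1b* was lowest there. The count was 1 without replicate 1 (44.3% of all genes), 5 without replicate 2 (56.7%) and 0 without replicate 3 (16.7%). The median spread of the 10 was 0.313, with 0.140 to 0.401 without single replicates. It was 0.170 with the length and GC trend removed, beside 0.289 for all genes. The median replicate 3 difference stayed between 0.221 and 0.485 and cannot be had without replicate 3. The cause of these shifts was not tested. Of the 91 genes of the machine and paralog lists, 84 were called (81.5% of all genes were), 62 to 82 without single replicates and 83 to 88 under the other settings. The 9 further moved values were single levels: 7 TPM with the other length, and the mean CPM of *Polr1a* without replicate 1 (129) and without replicate 3 (141). No paired analysis was possible because only 1 group exists. Depth did not limit any of the 10 genes, but with 3 libraries, tissue makeup, sex-linked RNA and the length trend all varied at once and cannot be told apart.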
